A study of Homo sapiens with 24 samples.

Results

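The genes OGG1 and MUTYH were the loci edited in these cells, and they were described here as stretches of DNA that can themselves carry 8-oxoguanine (OG). The OGG1 window held 61 bins of 1 kb and the MUTYH window held 31, together 92 of the 2835235 bins of the table. The OGG1 window ran from base 9739001 to base 9800000 of chromosome 3 and the MUTYH window from base 45320001 to base 45351000 of chromosome 1, in GRCh38, and every bin of the table in them was a member. The choice used position only and no measured value. OG was measured by OG-seq in HAP1, a near-haploid human cell line derived from the chronic myeloid leukaemia line KBM-7. There were 4 genotypes, WT with both genes, MUTYH-/ without MUTYH, OGG1-/ without OGG1, and DKO without either. The knockouts were made with CRISPR-Cas9, and the cells were grown without an added oxidant. Each genotype had 2 clones and 3 OG samples, 2 of them from the same clone, and each OG sample had an input sample, which makes 24 samples. Both DKO clones came from 1 of the OGG1-/ clones and carry its OGG1 deletion. In OG-seq, DNA is cut with an enzyme mixture, OG is oxidised and coupled to biotin, and the biotinylated fragments are pulled down and sequenced. The table has 12 columns, numbered 1 to 3 within a genotype, and the numbers were not tied to clones in the column names.

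OG is one of the most abundant oxidised bases in DNA and can pair with adenine as well as with cytosine. OGG1 is the DNA glycosylase that removes OG opposite cytosine, the first step of base excision repair. MUTYH is the glycosylase that removes the adenine which a polymerase has placed opposite OG, so that repair by OGG1 gets another chance. Loss of both therefore affects successive steps against the same G-to-T mutation. Guanine is oxidised most easily in runs of G, and OG within a folded G-quadruplex (G4) or at a promoter has been described as a possible regulatory mark.

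The value of a bin is the number of OG reads minus the scaled number of input reads, so it can be below 0. Each column was divided by the ratio of its total to the mean total, and the result is called the scaled value here. After this step the mean of all bins was 8.64 in every column. Whole reads could be recovered from the values, and the columns held from 59603216 OG reads (WT 1) to 113916768 (DKO 2). That is from 21.0 to 40.2 OG reads per bin. Input depth was from 27.7 to 35.8 reads per bin.

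The OGG1 guide is shown because it fixes where the edited locus was cut. It had 1 exact match in GRCh38, on the minus strand at chr3:9750311-9750330. The match lies in exon 1 of the principal OGG1 transcript (ENST00000344629.12, exon 1 at 9749952 to 9750423). The cut is expected after base 9750313, with 27 coding bases before it, at the end of codon 9. Capitals mark the PAM in the target:
OGG1 guide target: gtacgatgccccatgcgcctGGG
The bin with this target was chr3:9750001-9751000, which also holds 193 coding bases from exons 1 and 2. Small deletions of a few bases do not empty a bin of 1 kb, so the reads of this bin are no check of the knockout. The guide and edit of MUTYH were not used here.

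The stretch just before the OGG1 gene is shown because the start region was the part of the locus with the highest mean value. It covers chr3:9749702-9749941 on the plus strand (RefSeq promoter table, GRCh38.p14) and holds 20 CpG dinucleotides, marked in capitals, at a GC content of 65%:
OGG1 promoter: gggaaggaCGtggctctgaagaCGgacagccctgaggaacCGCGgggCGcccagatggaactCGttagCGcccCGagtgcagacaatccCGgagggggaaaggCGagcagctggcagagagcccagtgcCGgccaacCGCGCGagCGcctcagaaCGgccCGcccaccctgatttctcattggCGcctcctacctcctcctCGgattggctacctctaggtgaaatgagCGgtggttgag
In the full OGG1 promoter of the table (chr3:9749702-9750001), CCAAT matched 2 times on the strand opposite to the gene. GGGCGG and CCGGAAGT matched 1 time each, also on that strand. Of the 35116 promoters of the table, 34.6% held CCAAT, 45.0% held GGGCGG and 4.14% held CCGGAAGT on either strand. These matches are descriptions of the letters and not binding sites.

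A G4 motif was taken as 4 runs of at least 3 G with 1 to 7 bases between them on either strand. It occurred in 9 of 61 bins of the OGG1 window (14.8%) and in 7 of 31 bins of the MUTYH window (22.6%), against 9.55% of all bins. In the 200 kb on either side the share was 18% around the OGG1 window, above that of the window itself, and 5.75% around the MUTYH window. The pair in the MUTYH bin chr1:45333001-45334000 is shown because this bin had the highest mean value of both windows. Both motifs lie on the minus strand, the coding strand of MUTYH, in introns of the principal transcript (ENST00000456914.7). Capitals mark the runs of G:
chr1:45333210-45333238: GGGtctGGGGGctgtGGGccaggtaGGGG
chr1:45333064-45333087: GGGGaggaaGGGaaGGGtcatGGG
An intronic motif of the principal OGG1 transcript, on the minus strand opposite to the coding strand, is shown for comparison, since its bin had a lower mean of 17.8:
chr3:9757011-9757037: GGGGaggaGGGtacactGGGGtcaGGG

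The first question was how much OG the loci carried compared with the rest of the genome. Averaged over the 12 columns, the OGG1 window had a scaled value of 14.6 per bin and the MUTYH window 14.005, both above the 8.64 of all bins. In the OGG1 window 95.1% of bins had a mean above the genome mean, and in the MUTYH window 80.6%. The bins ranged from 3.64 to 25.9 in the OGG1 window and from 4.78 to 28 in the MUTYH window. The loci were also richer in G and C, with a mean GC content of 50.2% and 50.4% against 40.9% for all bins. Over 20 strata of all bins, values rose with GC content in every column up to the stratum at 52.2% GC. In the highest stratum (59.6%) they rose further in most columns. They fell in DKO 1 (12.3 to 9.84), MUTYH-/ 2 (12.7 to 11.8), DKO 3 (13.5 to 13.1) and DKO 2 (15.82 to 15.77). The highest stratum ran from 9.84 in DKO 1 to 16.9 in MUTYH-/ 1. After each column was centred within these strata, the windows were 1.57 and 1.04 above bins of like GC.

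**Figure D1:**
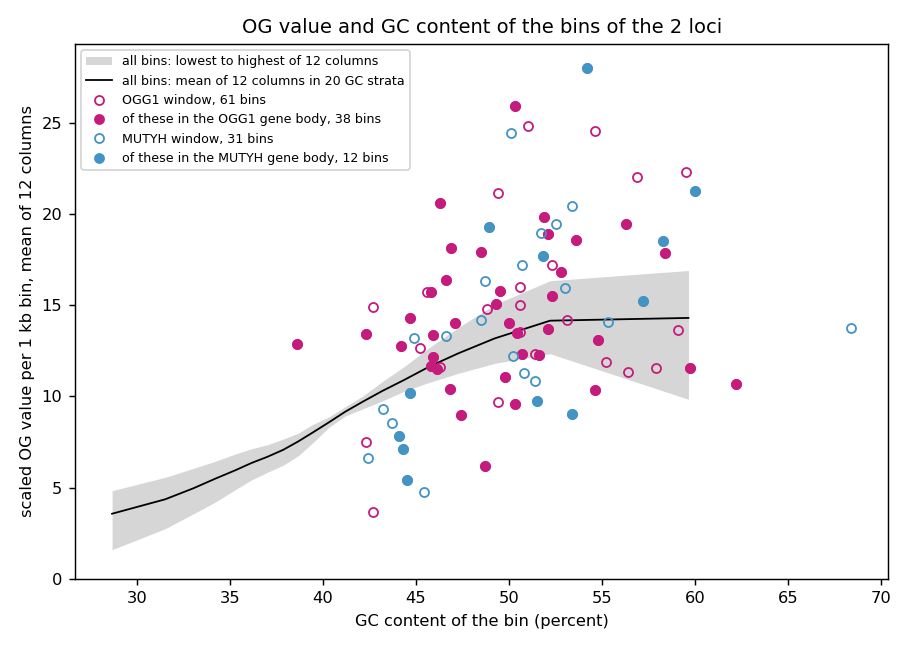
Scaled OG value (mean of 12 columns) of the 92 bins against their GC content in percent, with the bins of the gene bodies filled. The black line is the mean of all bins in 20 GC strata and the grey band is the range over the 12 columns. The bins of both windows lie mostly between 42% and 60% GC and scatter to both sides of the line, with a highest value of 28.

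Across bins, Pearson's r of GC content with the mean value was 0.25 over the 61 OGG1 bins and 0.52 over the 31 MUTYH bins. These points share the same 12 libraries and neighbouring bins share base composition, so r is a description. The bins with a G4 motif had a mean value of 13.3 in the OGG1 window against 14.8 for the other bins. In the MUTYH window the 7 bins with a motif, which include the highest bin, had 16.0 against 13.4 for the others. Within the MUTYH gene body the order was the other way, at 13.5 against 14.4. In the MUTYH flanks the means were 10.7 and 10.2. The bins with a motif were also richer in G and C in both windows (56.5% against 49.1% for OGG1 and 51.6% against 50.1% for MUTYH).

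Compared with 200 kb on either side, the OGG1 start region (the bin with the start of the principal transcript and its neighbours) stood higher. Its mean was 22.2 against 13.1 in the flanks. The difference was 9.07 ± 7.03 (SD, n = 12 columns), and the start region was higher in 11 of 12 columns (exact two-sided sign-flip permutation test, p = 0.0024, adjusted p = 0.0098 over 8 comparisons). Within strata of GC content the difference was 6.79 (10 of 12 columns, exact permutation test, adjusted p = 0.053). This comparison and the others with flanks below, before and within GC strata, were added after the values were seen. Adjustment was over the 8 comparisons of each scale and not over both scales. The p-values against flanks, here and below, are over columns and measure how the same bins repeat between libraries of the same cell line. They do not measure how stretches of this length vary from place to place, and single bins of the OGG1 flanks had means from -0.47 to 31.1. The principal OGG1 transcript was 5.63 ± 5.48 above the flanks in 11 of 12 columns (exact permutation test, adjusted p = 0.0098), and 4.45 above them within GC strata (adjusted p = 0.047). The whole annotated OGG1 gene was not distinguishable from its flanks, with a difference of 1.25 ± 2.85 (9 of 12 columns, exact permutation test, adjusted p = 0.18). The OGG1 window was 1.44 ± 1.92 above the flanks in 8 of 12 columns (exact permutation test, adjusted p = 0.044), and 0.42 above them within GC strata (adjusted p = 0.81).

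The MUTYH gene body was 3.91 ± 4.67 (SD, n = 12) above its flanks in 10 of 12 columns (exact permutation test, adjusted p = 0.035), and the MUTYH window was 3.80 ± 3.73 above them (adjusted p = 0.020). Within GC strata these differences were 0.50 and 0.46 (exact permutation test, adjusted p = 0.81 for both). The flanks of MUTYH had 42.4% GC against 51.1% in the gene body. The MUTYH start region was at 10.98, which is 0.78 ± 5.14 above the flanks, and 2.72 below them within GC strata (exact permutation test, adjusted p = 0.64 and 0.23). The OGG1 start region thus stood above its flanks before GC content was taken into account (55.6% GC against 47.9% in the flanks). Within GC strata its difference did not pass (exact permutation test, adjusted p = 0.053). The difference for the MUTYH start region was within its spread, and the 2 start regions were not tested against each other.

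The main question was whether a locus carried more OG in cells that had lost that gene. The annotated OGG1 gene (ENSG00000114026.22, chr3:9749944-9788219, plus strand) spans 38 bins. It contains CAMK1, a calcium and calmodulin dependent kinase gene, and overlaps TADA3, a histone acetyltransferase adaptor gene. The principal OGG1 transcript (9749952 to 9757407) takes 7 of these bins.

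Over the OGG1 gene body the scaled values were 17.3, 15.2 and 13.2 in WT and 15.4, 12.1 and 16.4 in MUTYH-/. In OGG1-/ they were 15.6, 18.1 and 10.3, and in DKO 12.4, 17.9 and 8.54. The genotypes overlapped, and both the highest and the lowest columns were columns without OGG1. The mean was 13.8 ± 4.03 (SD, n = 6) with OGG1 lost and 14.9 ± 1.96 (SD, n = 6) with OGG1 kept. The difference of -1.12 was smaller than the spread between columns (exact two-sided permutation test within MUTYH status, p = 0.56, adjusted p = 0.84 over 12 tests). It was -0.58 with MUTYH kept and -1.66 with MUTYH lost. Over the 7 bins of the principal transcript the difference had the other sign, at 3.21 (exact permutation test, p = 0.37).

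After subtraction of the flanks, the OGG1 gene body was 0.22 ± 3.23 with OGG1 lost and 2.29 ± 2.20 with OGG1 kept (SD, n = 6 each). The difference of -2.07 did not pass the test (exact permutation test, p = 0.24, adjusted p = 0.84). The flanks themselves were at 13.6 ± 1.29 with OGG1 lost and 12.6 ± 1.28 with OGG1 kept.

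In the OGG1 start region the scaled values were 8.87, 19.6 and 21.7 in WT and 16.1, 17.3 and 27.5 in OGG1-/. In MUTYH-/ they were 15.6, 26.0 and 27.5, and in DKO 24.9, 27.7 and 33.5. The DKO columns were all above the WT columns, and all other pairs of genotypes overlapped. By mean the order was WT (16.7), OGG1-/ (20.3), MUTYH-/ (23.04) and DKO (28.7), and no neighbours in this order differed beyond their spread. With 3 columns against 3 the exact permutation test of DKO against WT gave p = 0.10, the smallest it can give. On loss of OGG1 the difference was 4.62 (exact permutation test, p = 0.20, adjusted p = 0.84). On loss of MUTYH it was 7.37 (25.9 ± 5.83 against 18.5 ± 6.22, SD, n = 6 each), the smallest p of the 12 tests but not past the threshold (exact permutation test, p = 0.055, adjusted p = 0.66). WT 1, the lowest of the 12 columns here, was also the column with the fewest OG reads and had the highest relative input here, 1.53. Without WT 1 the difference was 5.41 (exact permutation test, p = 0.13). Relative to all bins of a column, mean OG reads of the start region were 1.48 in WT, 1.54 in OGG1-/, 1.55 in MUTYH-/ and 1.55 in DKO. Mean relative input was 1.29, 1.24, 1.11 and 0.97 in the same order. The part of the input in these differences was not tested.

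**Figure D2:**
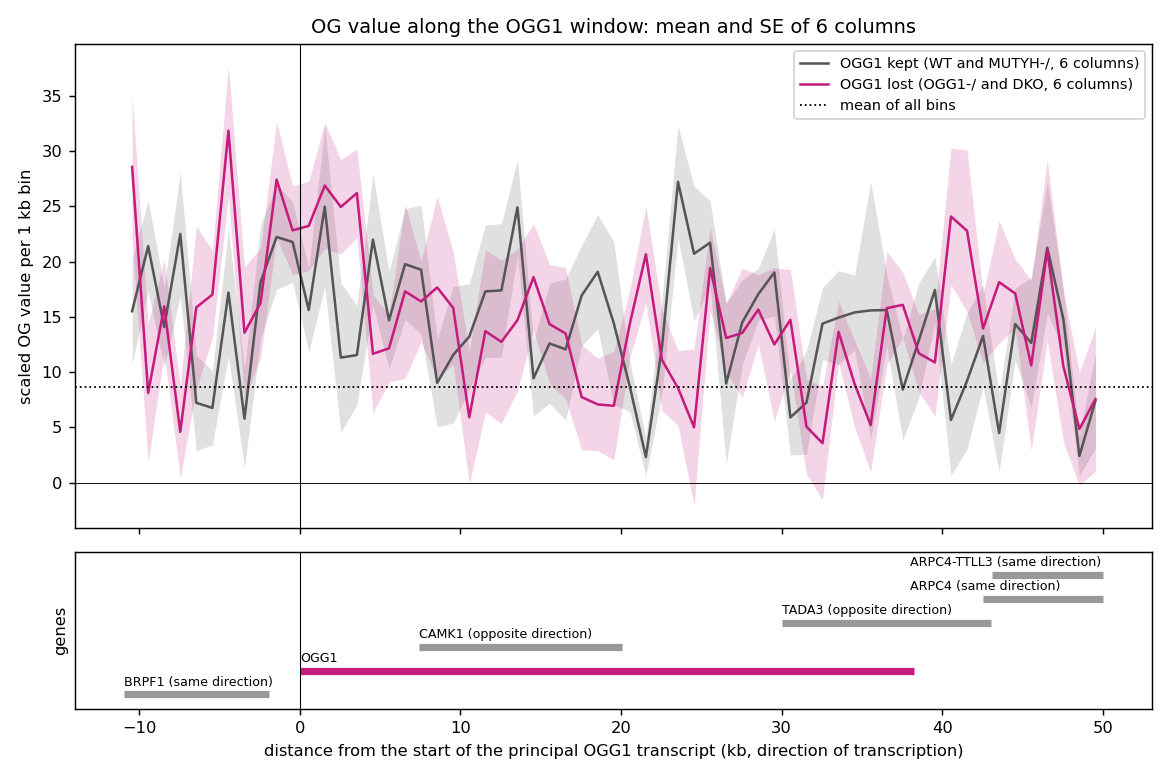
Scaled OG value per 1 kb bin (upper panel) along the 61 bins of the OGG1 window, against the distance in kb from the start of the principal transcript, with genes drawn below. Lines are means and bands the SE of 6 columns with OGG1 kept (grey) or lost (magenta), and the dotted line is the mean of all bins (8.64). The lines cross many times, and both lie above the dotted line around the start of OGG1.

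MUTYH (ENSG00000132781.21, chr1:45329163-45340893, minus strand) spans 12 bins, of which 11 belong to the principal transcript. In the MUTYH gene body the scaled values were 4.47, 15.2 and 13.5 in WT and 22.6, 12.05 and 11.7 in MUTYH-/. In OGG1-/ they were 13.5, 19.5 and 18.2, and in DKO 11.1, 18.7 and 8.73. Every pair of genotypes overlapped, with WT 1 lowest and a MUTYH-/ column highest. The mean was 14.2 ± 5.33 with MUTYH lost and 14.1 ± 5.30 with MUTYH kept (SD, n = 6 each). The difference was 0.11 (exact permutation test, p = 0.98, adjusted p = 0.98). It was 4.41 with OGG1 kept and -4.19 with OGG1 lost. Without WT 1 the difference was -1.54 (exact permutation test, p = 0.61).

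After subtraction of the flanks the MUTYH gene body differed by 0.51 on loss of MUTYH (4.16 ± 4.47 against 3.65 ± 5.27, SD, n = 6 each, exact permutation test, p = 0.87, adjusted p = 0.95). The MUTYH start region differed by -0.97 (10.5 ± 2.71 against 11.5 ± 7.04, exact permutation test, p = 0.81, adjusted p = 0.95). Its order by mean was WT (8.19), DKO (9.93), MUTYH-/ (11.1) and OGG1-/ (14.7), and all of these genotypes overlapped.

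**Figure D3:**
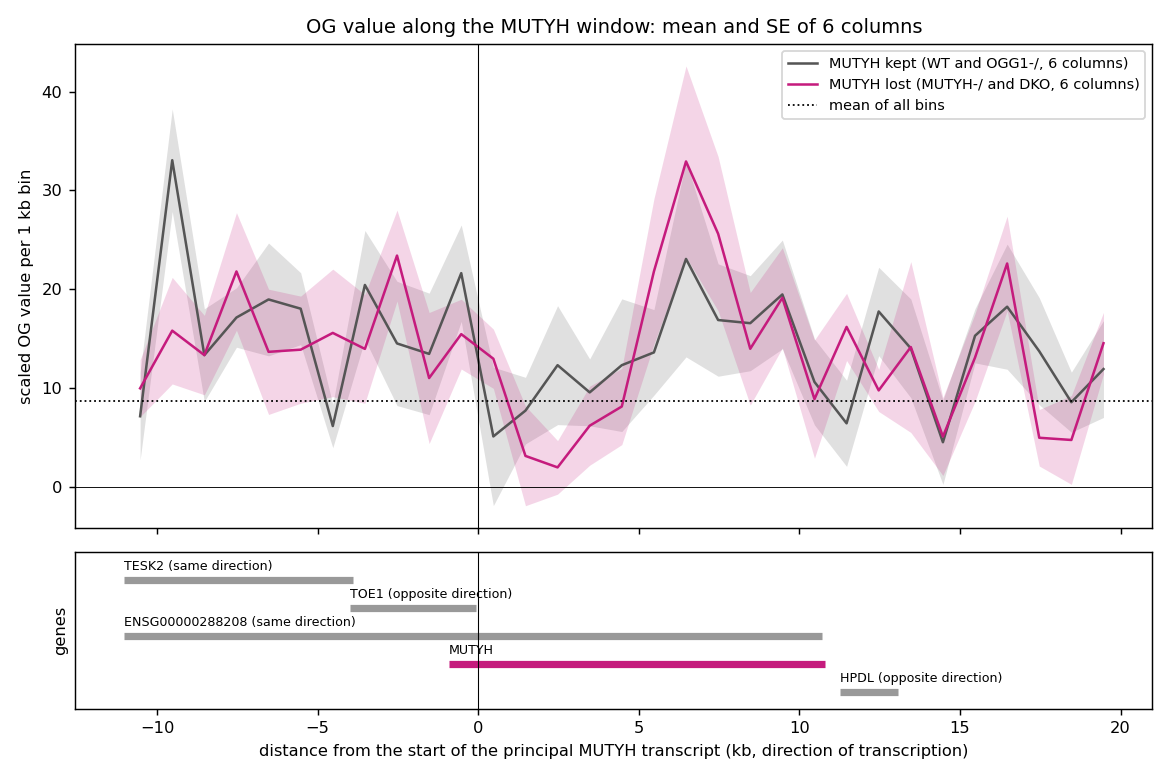
Scaled OG value per 1 kb bin (upper panel) along the 31 bins of the MUTYH window, against the distance in kb from the start of the principal transcript in the direction of transcription, with genes drawn below. Lines are means and bands the SE of 6 columns with MUTYH kept (grey) or lost (magenta), and the dotted line is the mean of all bins (8.64). The highest bin of both windows, with a mean of 28, lies inside the gene, and the bands of the 2 groups overlap there.

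Loss of the other gene served as the control, with the edit of the locus itself balanced between the sides compared. On loss of MUTYH the OGG1 gene body differed by -1.17 (exact permutation test, p = 0.55), much like the -1.12 on loss of OGG1 itself. On loss of OGG1 the MUTYH gene body differed by 1.69 (exact permutation test, p = 0.63) and the MUTYH start region by 2.71 (p = 0.49). None of the 12 tests passed, and their adjusted p-values ran from 0.66 to 0.98. The smallest p these tests allow is 0.005.

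**Figure D4:**
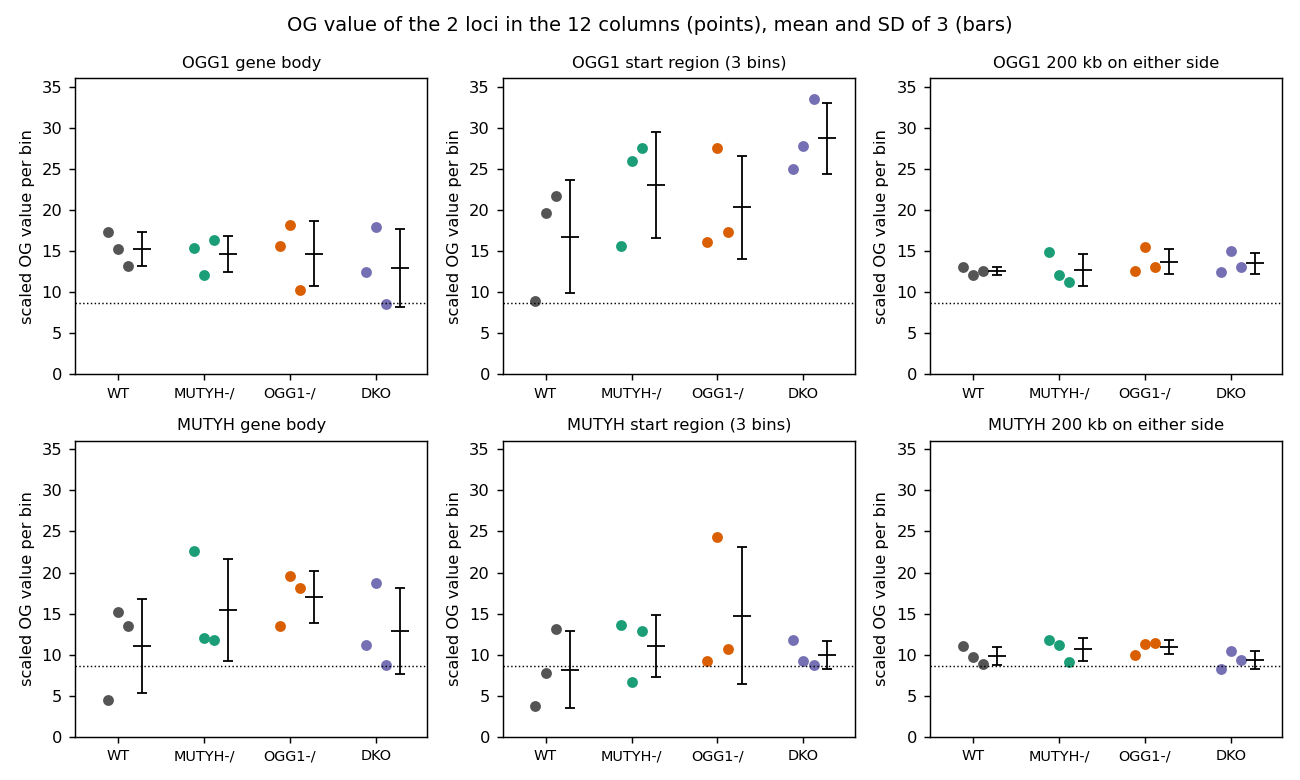
Scaled OG value per bin of the gene bodies, start regions and flanks of OGG1 (upper row) and MUTYH (lower row) in the 12 columns. Points are columns, bars are the mean and SD of 3, and the dotted line is the mean of all bins (8.64). The OGG1 start region is the panel with the highest values, up to 33.5, and the flanks show the smallest spread.

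Counting error sets part of this spread. For the OGG1 gene body the counting SD of a column was 1.28 at the median and the SD between columns of a genotype was 3.45, which is 2.69 times the counting error. For the MUTYH gene body the SD between columns was 2.33 times the counting error, and for the start regions 1.28 (OGG1) and 1.22 (MUTYH) times. For single bins the median was 1.51 times in the OGG1 window and 1.43 times in the MUTYH window. These errors cover counting only, since PCR copies are not independent molecules. The profile along a locus repeated weakly between columns. Over the 61 OGG1 bins the mean r between columns of the same genotype was 0.06, and over the 31 MUTYH bins it was 0.22.

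Input reads show that the loci were present in the DNA of all genotypes. Per bin and relative to all bins of the same column, the OGG1 gene body had from 1.13 to 1.27 times the mean input and the MUTYH gene body from 0.94 to 1.31 times. In the bin with the OGG1 guide the input reads were 65, 42 and 31 in WT and 33, 19 and 33 in MUTYH-/. They were 56, 41 and 39 in OGG1-/ and 33, 34 and 32 in DKO. No column lacked reads over the guide bin, with and without an edited OGG1.

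Each bin was then tested with limma within a fit over all bins, on log2(scaled value, at least 0, + 1). On loss of OGG1 0.000321% of 2802495 bins passed an adjusted p of 0.05, and on loss of MUTYH 0.00125%. None of the 92 member bins was among them. At an unadjusted p under 0.05 there were 10 of 61 OGG1 bins on loss of OGG1 (16.4%, 6 higher and 4 lower) against 4.37% of all bins. In the MUTYH window 1 of 31 bins had such a p on loss of MUTYH (3.23%), against 4.36% of all bins. The median log2 difference was -0.01 over the OGG1 bins and -0.34 over the MUTYH bins, with 30 of 61 and 11 of 31 bins higher with the gene lost. In this fit the variance of every bin was that of the trend with its mean, and how far the columns of a single bin scattered had no weight in its p.

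By the rule of the study for differentially enriched regions (log2 fold change over 0.5 in size with p, before adjustment, not above 0.01), 0.643% of all bins were called on loss of OGG1 and 0.644% on loss of MUTYH. The OGG1 window had 1 such bin of 61 and the MUTYH window 0 of 31 (limma). The called bin was chr3:9790001-9791000, in an intron of TADA3 beyond the end of OGG1. Its scaled values were 25.9, 15.5 and -1.04 in WT and 6.65, 46.1 and 33.6 in DKO, against -6.68, 0.59 and -0.24 in MUTYH-/ and 17.8, 10.3 and 30.0 in OGG1-/. The columns without OGG1 were mostly higher, but WT overlapped both groups. Its log2 difference was 2.81 (SE 1.02, limma adjusted p = 1.00).

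Bins in which all 6 columns with a gene lost lay beyond all 6 with it kept made up 0.214% of all bins for OGG1 and 0.22% for MUTYH. The OGG1 window had 2 such bins of 61 on loss of OGG1 and none on loss of MUTYH. The MUTYH window had none for either gene. In chr3:9771001-9772000, within the annotated OGG1 gene beyond its principal transcript, the values were from -5.41 to 6.82 with OGG1 kept and from 9.35 to 40.5 with OGG1 lost. This bin was the second largest rise of the window, at 2.48 on the log2 scale (SE 1.00, limma adjusted p = 1.00). The OG reads alone, relative to all bins, were from 0.61 to 0.97 with OGG1 kept and from 1.01 to 1.49 with it lost. The other bin, chr3:9773001-9774000, was lower without OGG1 (mean 8.57 against 27.2 with OGG1 kept).

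The bin with the guide target, chr3:9750001-9751000, had scaled values of 1.05, 16.7 and 10.98 in WT and 12.3, 14.3 and 16.8 in OGG1-/. It had 14.3, 23.4 and 27.3 in MUTYH-/ and 28.8, 32.4 and 34.9 in DKO. The DKO columns were above all others, while OGG1-/ and WT overlapped. The share of all bins with the columns of a genotype above all others was not counted. Relative to all bins of a column, OG reads alone overlapped. They were 1.55, 1.62 and 1.71 in DKO and 1.19, 1.28 and 1.64 in MUTYH-/. On loss of OGG1 the log2 difference was 0.80 (SE 0.68, limma adjusted p = 1.00). The bin with the start of the principal OGG1 transcript, chr3:9749001-9750000, differed by 0.10 (SE 0.58, limma adjusted p = 1.00) around a mean of 22.3.

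The 3 highest bins of the OGG1 window were chr3:9751001-9752000 (mean 25.9, exons 2 and 3 of OGG1), chr3:9748001-9749000 (24.8, at the end of BRPF1) and chr3:9745001-9746000 (24.5, exons 10 to 12 of BRPF1). BRPF1 encodes a scaffold of a histone acetyltransferase complex. The lowest were those that begin at chr3:9798001 (3.64) and chr3:9799001 (7.50), both in introns of the actin-related gene ARPC4, and at chr3:9781001 (6.16) in an intron of TADA3. The largest falls on loss of OGG1 were in BRPF1, with -2.09 (SE 0.94) at chr3:9740001-9741000 and -2.04 (SE 1.02) at chr3:9742001-9743000 on the log2 scale (limma adjusted p = 1.00 for both).

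In the MUTYH window the highest bin was chr1:45333001-45334000, with exons 3 to 5 of MUTYH and the G4 motifs printed above. Its scaled values were -9.10, 8.26 and 10.3 in WT and 2.96, 16.1 and 24.7 in DKO, against 67.4, 52.0 and 34.5 in MUTYH-/ and 57.5, 39.9 and 31.5 in OGG1-/. Both single knockouts lay above WT and DKO in every column. Opposite effects of MUTYH loss with OGG1 kept and lost, with no overlap in either pair of genotypes, occurred in 0.511% of all bins and in 2 of the 92 member bins, of which this is one. Against WT the log2 difference was 3.42 in MUTYH-/ (SE 0.90, limma adjusted p = 0.99) and 3.18 in OGG1-/ (SE 0.90, limma adjusted p = 1.00). These 2 comparisons share the WT columns. On loss of MUTYH over both backgrounds the difference was 0.80 (SE 0.64, limma adjusted p = 1.00).

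Relative to all bins of a column, OG reads were 0.67, 1.57 and 1.35 in WT and 0.90, 1.05 and 1.25 in DKO, against 2.53, 2.40 and 1.64 in MUTYH-/ and 2.23, 2.25 and 1.53 in OGG1-/. Relative input was 1.51, 1.86 and 1.41 in WT and from 0.68 to 1.31 in the other 9 columns. The part of the input in the difference from WT was not tested.

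**Figure D5:**
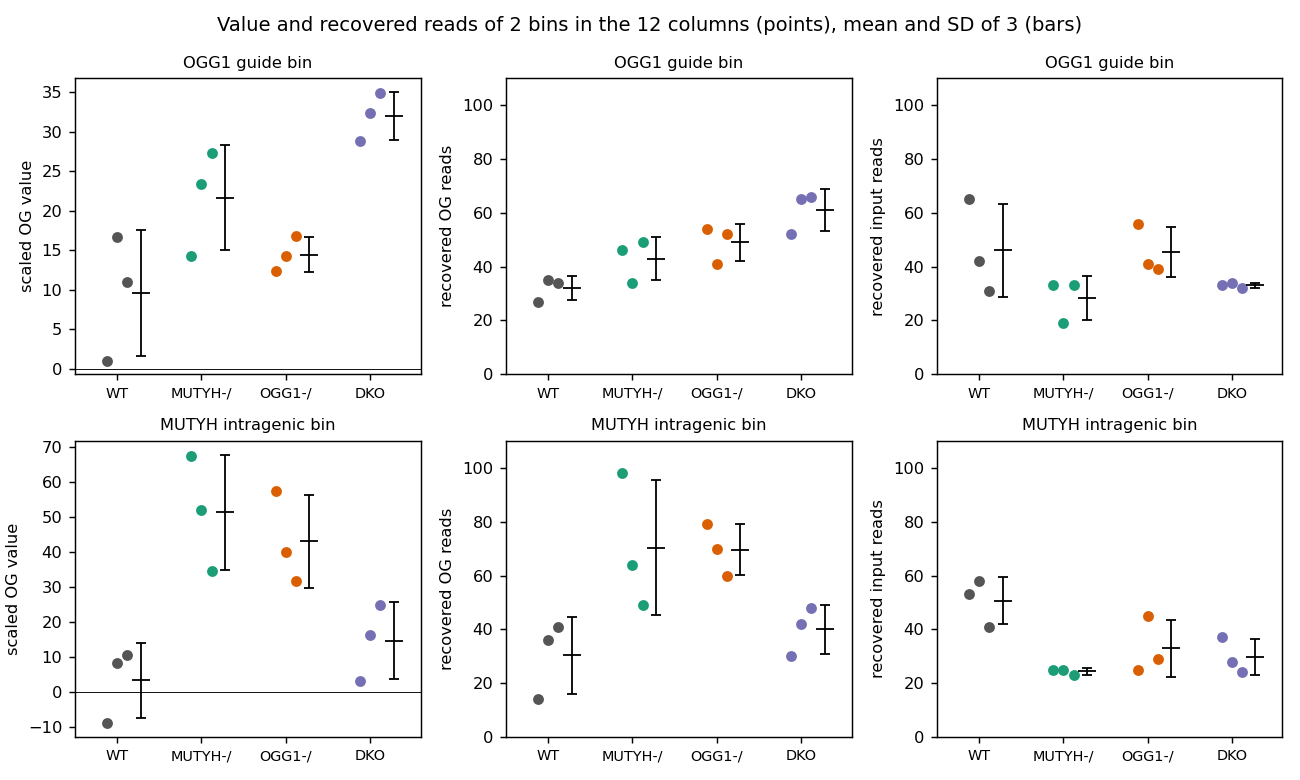
Scaled OG value, recovered OG reads and recovered input reads of the OGG1 guide bin (upper row) and of the highest MUTYH bin (lower row) in the 12 columns. Points are columns, and bars are the mean and SD of 3. In the guide bin the 3 DKO columns have the highest values (28.8 to 34.9), and their OG reads overlap those of OGG1-/. In the MUTYH bin the single knockouts lie above WT and DKO while WT has the most input reads.

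The next highest MUTYH window bins were the one that begins at chr1:45349001 (mean 24.4, an intron of the kinase gene TESK2) and chr1:45332001-45333000 (21.2, exons 6 to 11 of MUTYH). The lowest were chr1:45325001-45326000 (4.78), chr1:45338001-45339000 (5.40, an intron of MUTYH) and chr1:45321001-45322000 (6.64). The bin with the start of the principal MUTYH transcript, chr1:45339001-45340000, had values of -5.14, -5.63 and -7.96 in WT and 16.0, 1.76 and 11.9 in DKO, against 14.3, 24.1 and 9.76 in MUTYH-/ and -3.26, 34.0 and 18.4 in OGG1-/. WT was below 0 in all 3 columns and below every other column of the table for this bin. It had the largest rise of the window on loss of MUTYH, 1.97 on the log2 scale (SE 1.08, limma adjusted p = 1.00). The WT values and the OGG1-/ value of -3.26 entered this fit as 0. The other large rise, 1.44 (SE 0.94), was at chr1:45328001-45329000 in HPDL, a dioxygenase-like gene. The largest falls were -1.63 (SE 1.09) at chr1:45337001-45338000 in an intron of MUTYH and -1.59 (SE 0.64) in the TESK2 bin.

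Against WT alone, the rule of the study called 0.619% of all bins for MUTYH-/, 0.544% for OGG1-/ and 0.601% for DKO. Of the 92 member bins it called 3, 2 and 1 (limma). In MUTYH-/ these were the 2 MUTYH bins with exons 3 to 5 and with the transcript start, both higher. The other was chr3:9776001-9777000 in the OGG1 gene, lower by 4.52 on the log2 scale (SE 1.48). Its MUTYH-/ values were all below 0 (-13.1, -2.23 and -1.59). Values below 0 entered the fit as 0, so the 4.52 reflects the level of WT only. The WT values of the transcript start bin were also all below 0. In OGG1-/ the called bins were the bin with MUTYH exons 3 to 5 and chr1:45323001-45324000 (log2 difference 2.63, SE 1.01). In DKO the bin was chr3:9782001-9783000 (-3.83, SE 1.44). The lowest adjusted p of these 6 calls was 0.986 (limma). A difference between the effect of one loss with and without the other passed the same limits in 0.647% of all bins and in 3 of the 92, with limma adjusted p = 1.00 in each.

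A bin was called OG-enriched in a genotype where 2 or all 3 of its columns reached the 95th percentile of their own values. This held for 1.3% of all bins in DKO, 1.34% in WT, 1.33% in the cells without MUTYH and 1.54% in those without OGG1. The OGG1 window held 3 of 61 in DKO and in WT, 1 without MUTYH and 4 without OGG1. The MUTYH window held 2 of 31 in DKO, 1 in WT, 1 without MUTYH and 5 without OGG1. Within the OGG1 gene body there were 1 in WT, 0 in both single knockouts and 2 in DKO, one of which is the guide bin. Within the MUTYH gene body there were none in WT and 1 in DKO, against 1 in MUTYH-/ and 2 in OGG1-/. The bin with MUTYH exons 3 to 5 was enriched in MUTYH-/ and in OGG1-/ and reached the percentile in 6 of 12 columns, the most of any member bin.

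Taken as whole genes among 32969 gene bodies, OGG1 differed by -0.14 on the log2 scale on loss of OGG1 (SE 0.19, limma adjusted p = 0.995). MUTYH differed by 0.05 on loss of MUTYH (SE 0.31, limma adjusted p = 0.99). In this fit 0% of genes passed an adjusted p of 0.05 on either loss (limma), while 1453 and 1684 genes had an unadjusted p under 0.05. By the rule of the study 0.682% of genes were called on loss of OGG1 and 0.804% on loss of MUTYH, and neither OGG1 nor MUTYH was among them. The effect of MUTYH loss at MUTYH with and without OGG1 differed by -0.97 (limma adjusted p = 0.96).

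Of the neighbouring protein-coding genes, 8 of 9 had enough bins to be tested. HPDL, with 2 bins, did not. None was called by either rule on either loss. BRPF1, which lies just upstream of OGG1, had the smallest p, with a mean of 12.8 with MUTYH lost and 17.7 with it kept (log2 difference -0.42, SE 0.13, limma adjusted p = 0.95). On loss of MUTYH 1 of 8 neighbours was higher, against 43.7% of all genes, and on loss of OGG1 5 of 8 were higher, against 50.3% of all genes. Several of these genes share bins with each other and with OGG1 or MUTYH. TOE1, which encodes a 3′ exonuclease and overlaps the 5′ end of the annotated MUTYH gene on the other strand, differed by -0.16 on loss of MUTYH (SE 0.28).

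The other 27 genes of base excision repair gave a background for the pathway. None passed an adjusted p of 0.05 on either loss (limma), as for all genes. At an unadjusted p under 0.05 there were 0 of 27 on loss of OGG1, against 4.41% of all genes. On loss of MUTYH there were 2 of 27, against 5.11% of all genes. On loss of OGG1 14 were higher and 13 lower (50.3% of all genes were higher), with a median log2 difference of 0.00, the same as over all genes. On loss of MUTYH 8 were higher and 19 lower (43.7% of all genes were higher), with a median of -0.06 against -0.03 over all genes. The smallest p on loss of OGG1 were those of XRCC1, the scaffold of single-strand break repair (-0.29, SE 0.14), PCNA, the sliding clamp of replication (0.62, SE 0.32), and MBD4, a thymine glycosylase (0.31, SE 0.19), with limma adjusted p = 0.995 for each.

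On loss of MUTYH the smallest p was that of APEX1, the main abasic site endonuclease, which has 3 bins. Its scaled values were 19.3, 23.2 and 20.03 in WT and 8.85, 8.70 and 19.3 in DKO, against 3.95, 6.96 and 5.37 in MUTYH-/ and 16.0, 13.8 and 13.8 in OGG1-/. MUTYH-/ lay below every other column, and 1 DKO column reached the level of WT. The log2 difference was -1.05 (SE 0.20, limma adjusted p = 0.55). APEX1 was the only gene of the 27 called by the rule of the study, which called 0.804% of all genes on loss of MUTYH. PARP1, the sensor of strand breaks, differed by -0.39 (SE 0.16, limma adjusted p = 0.95).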

How the data were processed

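OG-seq and input libraries of HAP1 cells were trimmed by the authors with cutadapt 2.8, mapped to GRCh38 with Bowtie2 2.3.5.1, and counted in 1 kb bins with bedtools. The deposited value is a score, OG reads minus input reads scaled by signal extraction scaling, so it is not a count. The labels do not tie the 12 columns to clones, experiments or samples beyond the genotype, and the p-values here may measure technical spread. Columns were scaled to the mean column total. Whole OG and input reads were solved from the values (2 input factors per column, at most 5 bins of a column not solved).

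Loss of a gene (6 columns against 6) was tested by exact two-sided permutation of columns within the status of the other gene (400 arrangements), with Benjamini-Hochberg adjustment over 12 tests. Bins above 0 in at least 3 columns and genes of at least 3 bins were fitted with limma 3.58.1 (R 4.3.3) on log2 values with a pseudocount of 1, with adjustment over all features. The authors ran edgeR on input-subtracted reads, set to at least 0, over genomic features. That test was not used here, and their rule was applied to limma results for bins and genes. Genes were those of GENCODE v44. The fits were tested on simulated data. Python 3.11.15, numpy 2.4.6 and scipy 1.17.1 were used. Named were the member genes, their neighbours, the guide and start bins, the 3 highest and lowest bins, the 2 largest rises and falls on loss of the own gene, called bins, and the 3 repair genes with the smallest p on each loss, of which 1 is not reported here. The bin chr3:9773001-9774000 was named after its values were seen. The members and lists were chosen with earlier results of these data known. Alternatives covered scaling, values below 0, the median, gene extent, flanks of 50 kb, GC strata, read ratios, pseudocount, filters, strata, a replicate block and leaving out columns.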

Additional observations from a re-analysis of the deposited data

Results flagged for a closer look

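Of 24 groups of 6 columns, 2 held a column far from the other 5, where chance gives about 1 in 20. In the MUTYH gene body minus flanks, WT 1 was lowest among the columns with MUTYH kept, at -6.58. In the MUTYH start region, OGG1-/ 2 was highest among the columns with OGG1 lost, at 24.3.

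In 2 of 24 named bins, which are also 2 of all 92 member bins, the genotypes differed in opposite directions on loss of MUTYH with OGG1 kept and lost, with no overlap in either pair. The same held for 0.511% of all bins, and the named bins were chosen in part for high, low or called values, so the 2 are given as values only. In the MUTYH bin with exons 3 to 5 the mean rose by 48.1 from WT to MUTYH-/ and was 28.4 lower in DKO than in OGG1-/ (limma interaction on the log2 scale -5.25, SE 1.28, adjusted p = 1.00 over all bins). In chr3:9776001-9777000, within the annotated OGG1 gene, the difference was -29.2 from WT to MUTYH-/ and 10.8 from OGG1-/ to DKO (limma interaction 6.36, SE 2.10, adjusted p = 1.00).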

How the results depend on the processing

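None of the 12 loss tests passed after adjustment under any alternative, the lowest adjusted p being 0.06 (permutation test with the column number as a block, not exact). The sign of several small differences changed. Without scaling, the OGG1 gene body differed by 0.66 on loss of OGG1 and by 0.035 in the fit over all genes. With the median over bins, the MUTYH differences on loss of MUTYH were -1.08 (gene body), -0.90 (minus flanks) and 1.297 (start region). Over the principal transcript only, the OGG1 differences were 3.21 on loss of OGG1 and 4.48 on loss of MUTYH, and 2.26 and 4.54 minus flanks. Over all bins of the windows, OGG1 differed by 0.40 on loss of OGG1, and MUTYH by -0.45 and by -0.0498 minus flanks on loss of MUTYH. Within GC strata, the MUTYH start region was 2.72 below its flanks (-2.72), a setting chosen after seeing the data. The cause was not tested in any of these.

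With each column left out in turn, the OGG1 gene body on loss of OGG1 ranged from -2.36 (without DKO 2) to -0.015 (without DKO 3), and from -2.94 to -1.08 minus flanks, also without these. The MUTYH gene body on loss of MUTYH ranged from -1.68 to 1.16, from -1.44 to 1.59 minus flanks, and from -0.19 to 0.20 in the fit over all genes. The MUTYH start region ranged from -2.35 to 1.44 on loss of MUTYH. On loss of OGG1 the MUTYH gene body minus flanks ranged from -0.12 to 3.33. The OGG1 start bin ranged from -0.20 to 0.37 on the log2 scale. The count of OGG1 bins called by the rule of the study was 1, from 0 to 3 with a column left out, 2 without scaling, 2 with a pseudocount of 5, and 3 within GC strata on the linear scale. In the MUTYH window it ranged from 0 to 1.

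Columns with the same number had correlations of their deviations from -0.02 to 0.01 over bins. Over 100 kb windows these ran from -0.41 to 0.34, with 4 of 18 pairs over 0.1. Columns of other numbers and genotypes ran from -0.29 to 0.46 over these windows. Whether columns with the same number shared an experiment was not tested. With the mean of each number subtracted, the OGG1 start region on loss of MUTYH kept its difference of 7.37 (permutation test within OGG1 status, p = 0.005, adjusted p = 0.06). The columns were not permuted within a number, so this p is not exact for a replicate block. No call changed with the number as a block. Depth was 21.0 to 40.2 OG reads per bin, and the spread between columns was nearest to the counting error in the start regions (1.28 and 1.22 times).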
